A study of Sus scrofa with 24 samples.

Results

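The genes described here code for collagens and the other structural proteins of the extracellular matrix in the Longissimus dorsi (LD), the long back muscle of the pig. They were chosen by gene symbol alone: every COL gene with a chain number, the laminin chains, fibrillins, thrombospondins, fibulins and lysyl oxidases, and FN1, SPARC, DCN, LUM, BGN, TNC, TNN, POSTN and COMP. Of the 22861 genes in the expression table, 70 matched, with 68 different symbols because FBLN2 and TNN each hold 2 gene identifiers. Another 14 symbols of the same families had no row and were not analysed here, among them COL2A1, COL6A1, COL18A1, LAMA5 and LOXL2. The 24 libraries came from 24 male pigs. There were 6 purebred Iberian newborns (IB), 6 Iberian x Duroc crossbred newborns (IBxDU), and, at 4 months of age, a further 6 IB and 6 IBxDU pigs. All dams were Iberian sows of 1 farm, so the crossbreds differ from the purebreds by a Duroc sire. The newborns, labelled postnatal day 1, were sampled at birth, and the older pigs had received the same growing diet in both genetic types. Some newborns of a type were littermates, since the litters sampled were fewer than the animals, while the tests treat each animal as independent.

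The matrix of muscle is layered around and between the fibres. Fibrillar collagens give tensile strength to the sheets of connective tissue, and fibril-associated collagens and small leucine-rich proteoglycans coat the fibrils and control their spacing. Laminins and collagen IV build the basement membrane that wraps each muscle fibre, capillary and fat cell, and collagen VI ties this membrane to the fibrils. Fibrillins and fibulins form the scaffold of elastic fibres, lysyl oxidases cross-link collagen and elastin, and matricellular proteins such as periostin, tenascins and thrombospondins are laid down mainly in growing or remodelling tissue.

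Library totals ranged from 19.99 to 35.9 M. Levels are RPKM (reads per kilobase of counted gene model, relative to the library total), scaled between libraries so that the bulk of genes is level. The libraries were of 2 kinds: in 8 of them 99.3% to 99.5% of the total fell in listed genes, against 88.0% to 96.2% in the other 16, and the higher-share kind made up 1 of 6 IB newborns, 4 of 6 IBxDU newborns, 1 of 6 IB and 2 of 6 IBxDU pigs of 4 months. The cause of this split was not tested. Skeletal muscle markers dominated all 24 libraries, with a summed level of 35464 to 96440 in newborns and 106406 to 319748 at 4 months. The newborn IB 503 held bone markers at 88.7 against a newborn median of 4.95, and the newborn IBxDU 412 held cartilage markers at 27.2 against a newborn median of 4.44. IB 503 also held erythroid markers at 2132 against a newborn median of 402, and IBxDU 412 held bone markers at 30.8. Schwann cell markers stood at 174 in IB 503 and 293 in IBxDU 412, against a newborn median of 63.4.

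The matrix genes were higher in newborn than in growing muscle in nearly every class. Their summed level was 1997, 3432 and 4565 (lowest, median and highest of 12 newborns) and fell to 1239, 1659 and 1890 at 4 months, without overlap between the ages. They made up 0.480% to 0.911% of the whole RPKM of a newborn library and 0.118% to 0.253% of that of a growing pig. In bulk muscle, fewer matrix-producing cells and less RNA per cell cannot be told apart, and the tendon and fascia markers moved the same way, with all 4 of the 4 tested higher in newborns and a summed level of 13.9 to 64.1 against 6.46 to 20.1. Their part in the result was not tested.

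Of the 70 genes, 59 were abundant enough to test, with a mean over 0.5 scaled RPKM at 1 age or both. A gene was called at p of at most 0.01 and a change of at least 1.5-fold in limma, a linear model fitted to log2(scaled RPKM + 0.1) of all 11842 genes tested, and the adjusted p given is that of Benjamini and Hochberg over those genes. By this rule 44 genes were higher in newborns and 1, COL8A1, was higher at 4 months, while 14 were not called. Among all genes tested, 24.2% were called higher in newborns and 21.7% higher at 4 months. At an adjusted p under 0.05 alone the counts were 50 and 1, beside 35.1% and 31.2%. The difference was positive in 56 of the 59 and in 53.7% of all genes. The median log2 difference, newborn minus 4 months, was 1.13 over the 59 matrix genes and 0.08 over all genes. Because 14 of the 59 passed the filter only through their newborn level, the count is also given without them: of the 45 genes over the limit at both ages, 32 were called higher in newborns and 1 lower. The 14 were COL11A2, COL27A1, COL4A5, COL4A6, COL7A1, COL8A2, COL9A1, COL9A2, COMP, FBN2, LAMA3, LAMB3, LOXL3 and TNN. They stay in the class counts below, and 12 of them were called. In 22 of the 59, every newborn stood above every pig of 4 months, as did 7.04% of all genes tested. This count, the 56 positive signs and the median of 1.13 all include genes that passed the filter through newborns alone. Without scaling, the median of all genes moved to 0.91 and 58 matrix genes were called higher in newborns, so all changes below are relative to the bulk of genes.

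**Figure D1:**
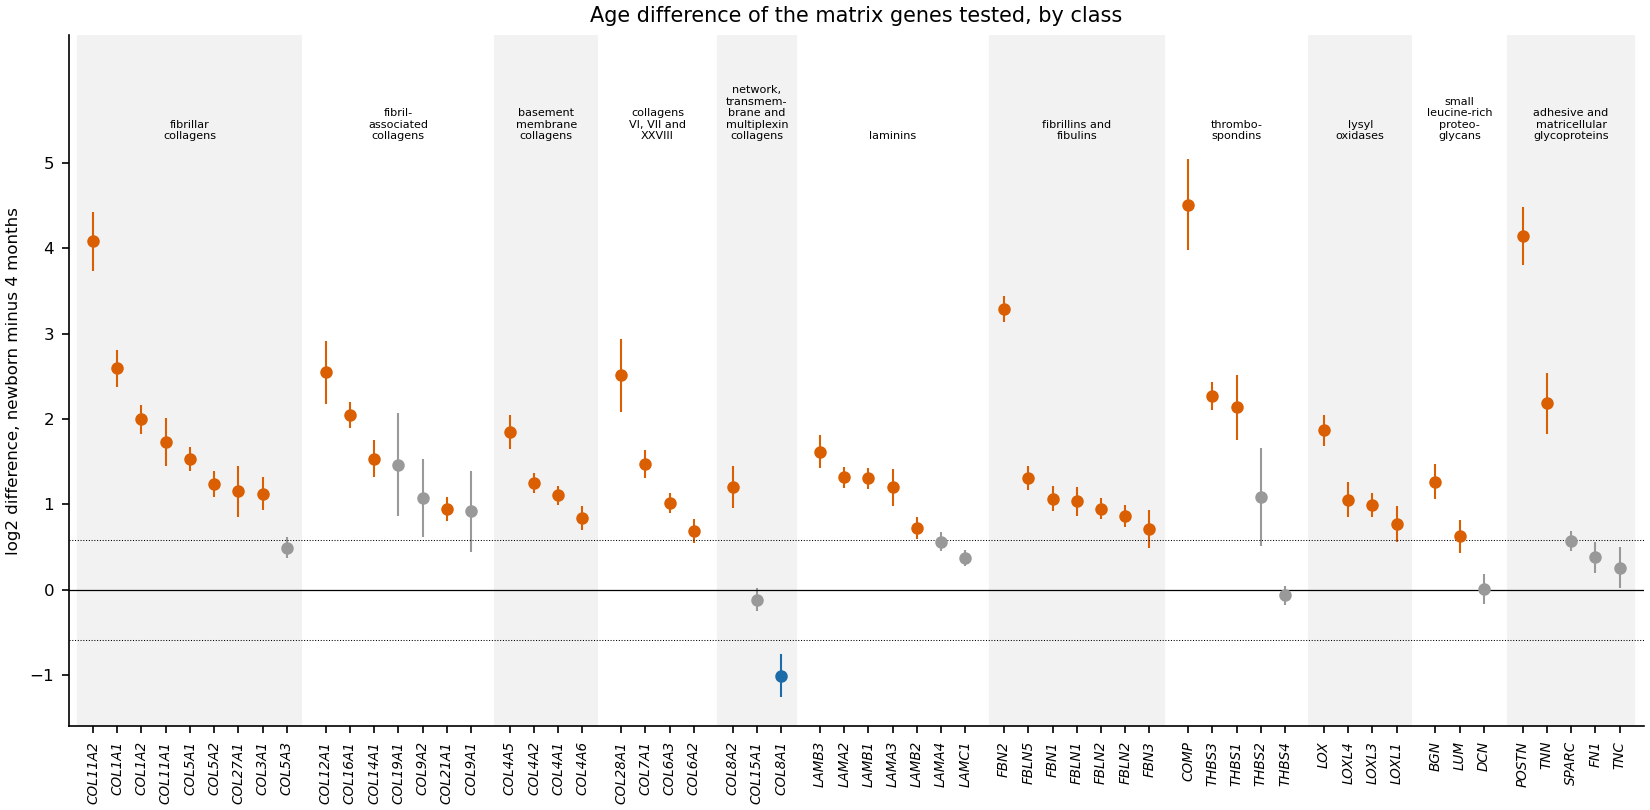
Log2 difference between newborn and 4-month muscle (y axis, newborn minus 4 months, ± SE, 12 animals against 12) for 58 of the matrix genes tested, ordered within their classes on the x axis. Orange points are the 44 genes called higher in newborns, the blue point is COL8A1, called higher at 4 months, grey points are 13 genes not called, and dotted lines mark 1.5-fold.

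Among the fibrillar collagens, 8 of the 9 genes were called higher in newborns. The chains of type I collagen, the main collagen of tendon and muscle fascia, had the largest change of the abundant fibrillar chains. COL1A1 stood at 215, 493 and 692 scaled RPKM (lowest, median and highest) in newborns and at 39.0, 71.0 and 130 at 4 months. The ages did not overlap, and the difference was 2.59 ± 0.22 (log2 ± SE, limma adjusted p = 1.1e-10). Only 246 bases of its gene model were counted, so its level beside those of other genes is uncertain. COL1A2, the partner chain, went from 58.2, 102 and 138 at 4 months to 209, 371 and 538 in newborns, again without overlap (2.00 ± 0.17). COL3A1, the chain of the thin type III fibrils, was the most abundant of the class and changed less, from 165, 238 and 381 to 247, 595 and 1019 (1.13 ± 0.20, adjusted p = 1.7e-05), with overlapping ages. The ratio of COL3A1 to COL1A2 was 0.994 to 2.07 in newborns and 1.98 to 3.16 at 4 months, so type III weighed more against type I in the older muscle, although the ranges met.

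The minor fibrillar chains, which start and size fibrils, followed. COL5A1 and COL5A2 differed by 1.53 ± 0.14 and 1.24 ± 0.15, while the third type V chain, COL5A3, missed the fold limit at 0.49 ± 0.12. Its ratio to COL5A1 was 0.288 to 0.509 in newborns and 0.478 to 1.13 at 4 months. Type XI collagen, best known from cartilage, was scarce but showed the largest difference of the class. COL11A2 was 0.624, 3.11 and 9.36 in newborns and 0.0176, 0.105 and 0.181 at 4 months (4.08 ± 0.35), without overlap, and COL11A1 differed by 1.73 ± 0.28. COL27A1 was also called (1.15 ± 0.29), but lost the call with the lower-share libraries alone.

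**Figure D2:**
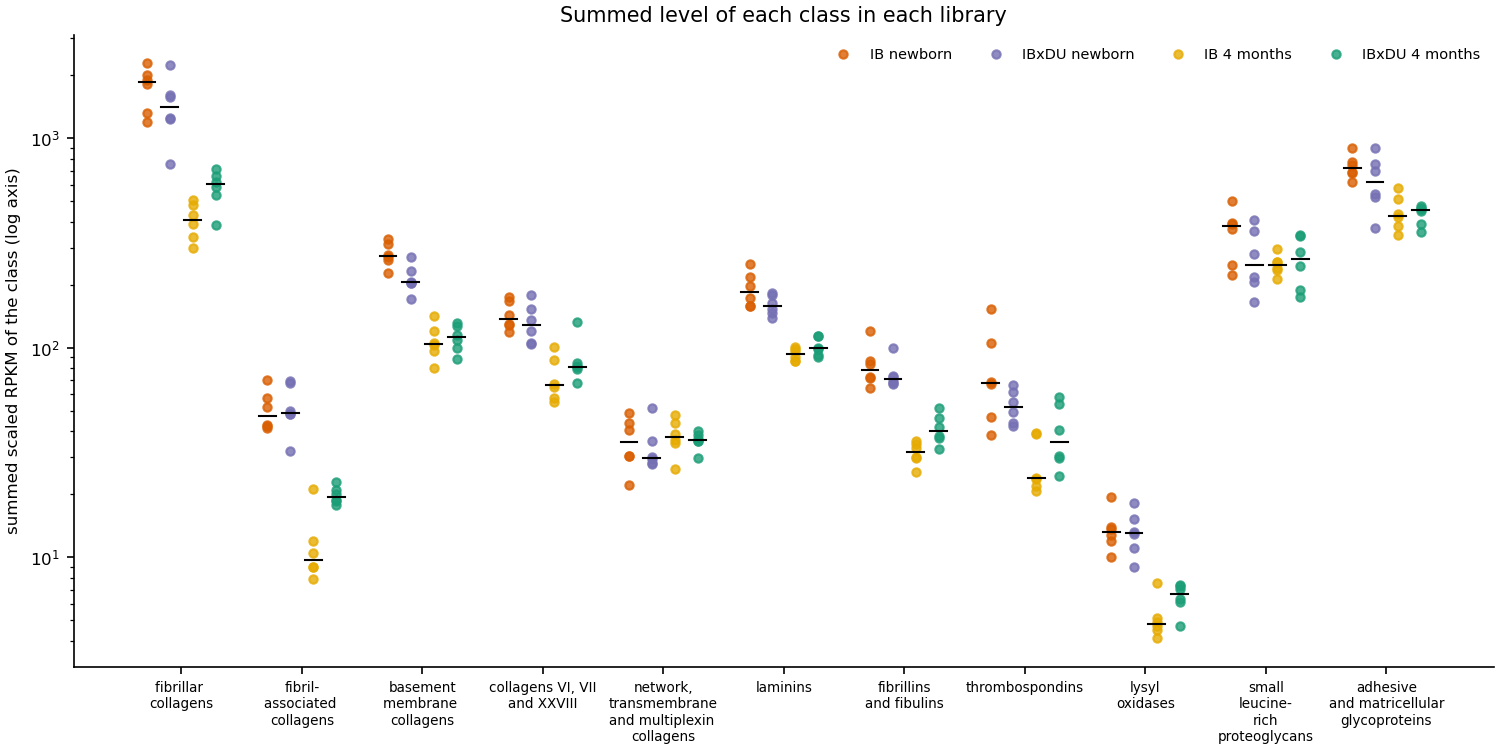
Summed scaled RPKM of each class (y axis, log scale) in each of the 24 libraries, with 6 libraries per group and a bar at the group median. The fibrillar collagens ranged from 756 to 2274 in newborns and from 299 to 711 at 4 months, while the network, transmembrane and multiplexin collagens overlapped fully between the ages.

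Fibril-associated collagens decorate the fibril surface, and 4 of the 7 tested were called higher in newborns. COL12A1, a marker of tendon and fascia under load, showed 5.87, 15.2 and 25.3 in newborns and 0.674, 2.20 and 10.215 at 4 months (2.54 ± 0.36, adjusted p = 1.1e-06). The level of COL12A1 moved with the kind of library at both ages, as described at the end. COL16A1 was at 5.92, 8.40 and 15.7 against 1.40, 1.92 and 3.01 (2.05 ± 0.15), and was the only one of the class without overlap between the ages. COL14A1, the most abundant of the class, was at 10.3, 19.8 and 30.6 against 2.95, 5.85 and 12.7 (1.54 ± 0.22). COL21A1 differed by 0.95 ± 0.14. The cartilage collagens COL9A1 and COL9A2 were not called, and their high values came from a single animal. The newborn IBxDU 412 held 6.16 scaled RPKM of COL9A1 and 7.07 of COL9A2, whereas no other newborn exceeded 0.170 and 0.400. This is the library with the cartilage markers named above, where MATN1, a cartilage matrix protein, stood at 2.28 against at most 0.0338 elsewhere and ACAN, which codes for aggrecan, at 2.61 against at most 0.413.

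All 4 basement membrane collagens tested were called higher in newborns, of which COL4A6 lost the call under quantile normalization and with a pseudocount of 0.5. COL4A5 and COL4A6 passed the filter only through their newborn level. COL4A1 was at 94.6, 147 and 199 in newborns and at 49.4, 68.6 and 86.5 at 4 months (1.10 ± 0.11, adjusted p = 2.5e-09). COL4A2, its partner in the common network, moved by 1.25 ± 0.12, and neither gene overlapped between the ages. The ratio of COL4A1 to COL4A2 stayed between 1.28 and 1.83 in all 24 libraries. The scarcer COL4A5 was at 0.911, 1.70 and 3.28 against 0.204, 0.430 and 0.830 (1.85 ± 0.20), and COL4A6 differed by 0.84 ± 0.14. COL4A3 and COL4A4, the chains of the kidney and lung network, did not exceed 0.635 in any library and were not tested.

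Laminins form the other network of that membrane, and 5 of the 8 tested were called. LAMA2, the muscle laminin chain whose loss causes congenital muscular dystrophy, was at 37.3, 42.8 and 75.7 in newborns and 12.6, 19.5 and 22.1 at 4 months (1.32 ± 0.12, adjusted p = 5.7e-10), without overlap. LAMB1 differed by 1.30 ± 0.12, also without overlap. LAMB2, the beta chain enriched at the neuromuscular junction, had the highest mean of the laminins over the 24 libraries, though not the highest median at either age, and differed less, with 29.6, 42.1 and 64.1 against 20.7, 24.6 and 45.4 (0.73 ± 0.13). LAMB3 (1.62 ± 0.19) and LAMA3 (1.20 ± 0.22), chains of epithelial laminin, were called at levels of 1.55 and below. LAMC1, the gamma chain shared by most laminins, was at 25.2, 38.9 and 51.5 in newborns and 25.3, 29.9 and 35.2 at 4 months, and its difference of 0.37 ± 0.10 missed the fold limit. LAMA4, a chain of vessel walls, also missed the fold limit at 0.57 ± 0.11.

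Collagens VI, VII and XXVIII were called higher in newborns in 4 of 4 genes tested, of which COL7A1 passed the filter through newborns alone. COL6A2 was at 70.6, 90.9 and 119 in newborns and 38.3, 56.6 and 108 at 4 months (0.69 ± 0.14, adjusted p = 0.00010), and COL6A3 at 27.7, 38.3 and 57.0 against 15.3, 20.7 and 22.6 (1.02 ± 0.12). COL7A1, the chain of anchoring fibrils, differed by 1.48 ± 0.16. COL28A1, a collagen found around Schwann cells in mice, was at 0.950, 1.70 and 7.93 against 0.134, 0.214 and 1.79 (2.51 ± 0.42). Its level moved with the kind of library, as described at the end. The Schwann cell markers were also higher in newborns, in 5 of 6 tested, with a summed level of 40.0 to 293 against 10.7 to 72.2, and their part in the COL28A1 difference was not tested.

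The network, transmembrane and multiplexin collagens behaved differently. COL8A1, a network collagen of vessel walls, was the only matrix gene called higher at 4 months. It was at 0.215, 0.465 and 1.22 in newborns and at 0.690, 1.07 and 2.14 at 4 months (-1.01 ± 0.25, adjusted p = 0.0011), with overlap, and the call was lost without scaling (-0.28). Its partner COL8A2 was called the other way (1.21 ± 0.25). COL15A1, a basement membrane collagen that supports capillaries and muscle fibres, was at 20.2, 28.9 and 49.7 in newborns and 25.3, 35.2 and 46.5 at 4 months, a difference of -0.12 ± 0.13 that was not called and turned positive without scaling (0.72) and under quantile normalization (0.23). COL10A1, COL13A1, COL17A1 and COL23A1 were below the limit for testing.

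Fibrillins and fibulins were called higher in newborns in all 7 genes tested, of which FBN3 lost the call under quantile normalization, with a pseudocount of 0.5 and with the lower-share libraries alone. FBN2, the fibrillin of fetal microfibrils, passed the filter only through its newborn level and had the smallest adjusted p of the 59 genes tested. It was at 1.74, 2.43 and 4.68 in newborns and at 0.0786, 0.185 and 0.305 at 4 months (3.29 ± 0.16, adjusted p = 4.0e-15). FBN1, the adult fibrillin, changed less (1.07 ± 0.14), so that the ratio of FBN2 to FBN1 was 0.127 to 0.398 in every newborn and 0.0184 to 0.0634 in every growing pig. FBLN5, which places elastin on the microfibrils, was the most abundant of the class with 15.0, 19.1 and 38.9 against 6.22, 8.61 and 10.7 (1.31 ± 0.14). FBLN1 differed by 1.04 ± 0.17 and FBN3 by 0.71 ± 0.23. The pair of FBLN2 identifiers gave 0.86 ± 0.13 and 0.95 ± 0.12, and reads could be split between them.

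Thrombospondins were divided. COMP, the pentameric thrombospondin of cartilage and tendon, had the largest difference of the 59 genes tested, at 0.291, 4.80 and 19.3 in newborns and 0, 0.0610 and 0.683 at 4 months (4.51 ± 0.53, adjusted p = 4.6e-08). COMP passed the filter only through its newborn level. THBS3 was at 4.99, 6.99 and 10.1 against 0.837, 1.31 and 2.57 (2.27 ± 0.17), without overlap. THBS1, an activator of latent TGF-beta, was at 6.31, 12.6 and 86.8 against 1.93, 3.42 and 7.57 (2.14 ± 0.38). Its newborn values were uneven: IB animals 504, 431 and 503 held 86.8, 71.4 and 34.0, and the other 3 IB newborns held 6.34 to 10.6. THBS4, a thrombospondin of tendon and of the muscle attachment, was level, with 12.5, 17.6 and 24.6 in newborns and 14.8, 17.8 and 24.8 at 4 months (-0.06 ± 0.11, positive at 0.77 without scaling and at 0.19 under quantile normalization).

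THBS2, an inhibitor of vessel growth singled out after its values were seen, was not called but split the growing pigs. It stood at 16.7 to 27.7 in the 4-month animals IB 907 and 909 and IBxDU 714, 748 and 702, and at 0.630 to 1.77 in the other 7. The newborns lay between 5.89 and 19.3. The split followed neither the genetic type nor the kind of library.

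All 4 lysyl oxidases were called higher in newborns, of which LOXL3 passed the filter through newborns alone. LOX, the main cross-linking enzyme of collagen and elastin, was at 2.68, 3.97 and 5.33 in newborns and 0.552, 0.931 and 2.29 at 4 months (1.87 ± 0.18, adjusted p = 1.5e-09), without overlap. LOXL4 (1.06 ± 0.21), LOXL3 (0.99 ± 0.14) and LOXL1 (0.77 ± 0.21), related enzymes of the family, followed. The ratio of LOX to COL1A2 was 0.00731 to 0.0161 in newborns and 0.0049 to 0.0184 at 4 months, so the ranges of the ages overlapped.

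The small leucine-rich proteoglycans did not move together. DCN, which codes for decorin, a proteoglycan that binds collagen fibrils, was as abundant at 4 months (123, 209 and 280) as in newborns (117, 211 and 386), a difference of 0.01 ± 0.17 that became 0.85 without scaling. Since COL1A2 fell by 4 months, the ratio of DCN to COL1A2 was 0.427 to 0.741 in every newborn and 1.04 to 3.60 in every growing pig. BGN, which codes for biglycan, was called higher in newborns with 30.1, 57.9 and 90.5 against 14.4, 26.7 and 38.2 (1.27 ± 0.20). LUM, which codes for lumican, was called at 0.62 ± 0.19, close to the fold limit, and lost the call in 5 of 24 fits that each left out 1 library.

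Of the adhesive and matricellular glycoproteins, POSTN and TNN were called. POSTN, which codes for periostin, a matricellular protein of fibroblasts in growing connective tissue, was at 8.30, 23.5 and 44.2 in newborns and at 0.260, 1.09 and 3.60 at 4 months (4.14 ± 0.34, adjusted p = 9.2e-11), without overlap. TNN, a tenascin of bone and tendon surfaces, in its longer gene model of 4770 counted bases, was at 0.0599, 0.407 and 2.83 in newborns and at 0 in 10 of the 12 growing pigs (2.18 ± 0.36, a value that became 0.89 with a pseudocount of 0.5). The highest value was that of IBxDU 402, the next was 0.770, and without this animal or with the lower-share libraries alone TNN no longer passed the filter. SPARC, a collagen-binding protein counted over 465 bases, was at 351, 646 and 832 against 335, 420 and 564 and missed the fold limit (0.57 ± 0.12). FN1, which codes for fibronectin (0.38 ± 0.19), and TNC (0.26 ± 0.24) were not called.

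The enzymes and partners of these proteins were read from other gene lists, beside the 24.2% and 21.7% of all genes called higher in newborns and at 4 months. In the list of collagen folding and modification, 7 of 14 genes tested were called higher in newborns, led by P4HA3 (1.64 ± 0.22) and P3H1 (1.49 ± 0.10), which hydroxylate prolines of the chains, and 3 were called higher at 4 months, led by COLGALT2 (-1.80 ± 0.12), a collagen galactosyltransferase, and P4HA2 (-0.91 ± 0.17). Among the procollagen processing genes 4 of 6 were higher in newborns, with BMP1, the C-proteinase of procollagen, at 2.40 ± 0.17 and ADAMTS14 at 1.74 ± 0.22. Matrix proteinases and their inhibitors gave 7 of 10, led by MMP23B (3.19 ± 0.20) and MMP11 (2.42 ± 0.21). The collagen and laminin receptors gave 10 of 18, with SDC4 (1.59 ± 0.30) and ITGA2 (1.58 ± 0.23) in front. Other basement membrane proteins gave 3 of 8, including NID2 (1.503 ± 0.10) and NID1 (1.24 ± 0.11), the nidogens that link laminin to collagen IV. Elastic fibre and other matrix partners gave 13 of 19, led by MFAP2 (2.70 ± 0.15), a microfibril protein, and ELN (2.32 ± 0.16), which codes for elastin. The TGF-beta signalling list was close to that background, with 4 of 14 higher in newborns, among them TGFBI (1.53 ± 0.16) and LRRC32 (1.22 ± 0.23), and SMAD4 was higher at 4 months (-0.80 ± 0.11). No gene of the processing, proteinase, receptor, basement membrane or elastic fibre lists was called higher at 4 months.

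Markers of other cells were counted in the same fit, in which 24.2% of all genes were called higher in newborns and 21.7% lower. Bone markers were called higher in newborns in 3 of 4 tested, endothelial markers in 2 of 8, smooth muscle and pericyte markers in 4 of 9 with 1 lower, and erythroid markers in 3 of 4. Of 12 cartilage markers found, 4 were tested and all 4 were called higher in newborns. Only 1 cartilage marker and 1 bone marker were over the limit in a genetic type at 4 months, so most of those tested passed through newborns alone. This also held for part of the tendon and fascia, Schwann cell and erythroid markers, of which 3 each were over the limit at 4 months. The defining MATN1 was at 0 in 19 of 24 libraries. SOX9, another cartilage marker too low to test, had a median of 0.314 in newborns and 0.409 at 4 months. Fibroblast markers gave 1 higher and 1 lower of 4, with PDGFRA at 0 in all 24 libraries and a summed level of 102 to 182 in newborns against 75.2 to 144 at 4 months. Adipocyte markers gave 1 higher and 3 lower of 6, macrophage markers 3 lower of 6, and skeletal muscle markers 1 higher and 7 lower of 8. The endothelial and fibroblast shares were close to those of all genes. The part of these cells in the matrix differences was not tested.

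In newborns, the count of matrix genes called between the genetic types was no larger than the background. Of the 60 genes tested, 0 were called higher in IBxDU and 1, LOXL4, higher in IB, beside 1.96% and 2.31% of all genes. LOXL4 was lower in IBxDU, at 1.36, 1.55 and 2.43 against 1.99, 3.17 and 5.64 in IB, with overlap (log2 IBxDU minus IB -0.96 ± 0.23, 6 against 6, limma p = 0.00097 and adjusted p = 0.10, two-sided exact permutation p = 0.0043). Its class did not move as a whole, since LOXL1 and LOXL3 had the opposite sign at 0.44 ± 0.35 and 0.45 ± 0.20 and were not called. At an unadjusted p under 0.05 the counts were 1 and 5, and 0 of the 11791 genes tested (0.0%) reached an adjusted p under 0.05 by limma or by voom, against 1075 higher and 1193 lower in IBxDU at an unadjusted p under 0.05. Differences were negative in 42 of the 60, or in 35 without scaling, and 48.2% of all genes were positive. Without IBxDU 412, 119 genes were higher and 168 lower in IBxDU at an adjusted p under 0.05, and a limma fit on all 4 groups gave 163 and 199. The LOXL4 call was lost without scaling (-0.80), and its adjusted p ranged from 0.026, in the fit on all 4 groups, to 0.25 over all settings and left-out libraries. COL4A1 (-0.37 ± 0.14) and COL4A2 (-0.40 ± 0.14) were among the lower genes that missed the limits. Among the matrix enzymes, P4HA2 was called higher in IBxDU (0.79 ± 0.20) and P4HA3 lower (-0.71 ± 0.22).

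At 4 months the majority of signs was opposite to that in newborns, although no matrix gene passed the direct test of a change with age, given below. Of the 46 genes tested, 8 were called higher in IBxDU and 0 higher in IB, beside 1.04% and 0.403% of all 11175 genes. The 8 were COL1A1, COL14A1, COL16A1, COL8A1, THBS1, BGN, FN1 and POSTN. None of the matrix genes reached an adjusted p under 0.05, as 8 of the 11175 genes did upwards (0.0716%) and 2 downwards (0.0179%), so the calls rest on the unadjusted limits. The sign was positive in 42 of 46 and in 48.5% of all genes, and the median was 0.31 against -0.01 over all genes. These values include COL28A1, COL4A5 and TNC, the 3 genes that passed the filter only through IBxDU, while 0 passed only through IB. All 8 calls were among the 43 genes over the limit in both types. At an unadjusted p under 0.05 there were 15 matrix genes higher in IBxDU and 0 lower, beside 521 and 430 of all 11175 genes.

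FN1 and COL14A1 separated the genetic types. FN1, whose protein forms the first scaffold for collagen assembly, was at 9.72, 12.7 and 13.9 in IB and 17.2, 20.8 and 27.4 in IBxDU (0.79 ± 0.14, limma adjusted p = 0.054). COL14A1 was at 2.95, 4.74 and 5.68 in IB and 6.02, 9.88 and 12.7 in IBxDU (1.01 ± 0.20, adjusted p = 0.092). In both genes every IBxDU pig stood above every IB pig, as in 0.447% of all genes, and the two-sided exact permutation p was 0.00216, the smallest that 6 against 6 allows. POSTN had the largest difference, with 0.260, 0.586 and 1.13 in IB and 0.983, 2.18 and 3.60 in IBxDU (1.51 ± 0.34, limma adjusted p = 0.16, exact permutation p = 0.0065), and IBxDU 732 was the only crossbred within the IB range.

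**Figure D3:**
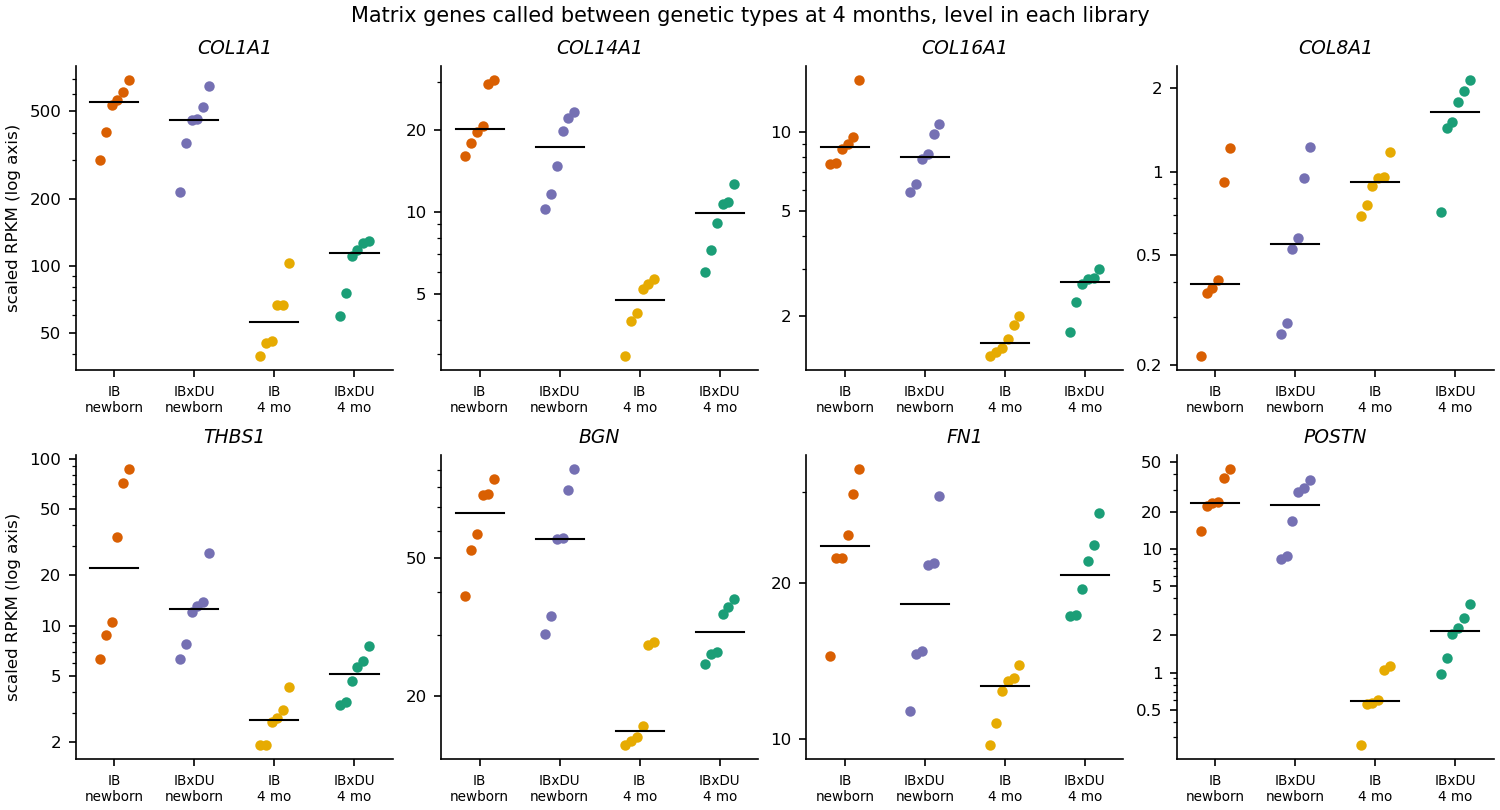
Scaled RPKM (y axis, log scale, a separate range for each gene) in each library of the 4 groups for the 8 genes called between genetic types at 4 months, with a bar at the median of 6 animals. At 4 months FN1 ranged from 9.72 to 13.9 in IB and from 17.2 to 27.4 in IBxDU, while in newborns the genetic types overlapped in all 8 genes.

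The other called genes overlapped between the types. COL16A1 was at 1.40, 1.57 and 1.99 in IB and 1.72, 2.69 and 3.01 in IBxDU (0.59 ± 0.15, limma adjusted p = 0.26). THBS1 was at 1.93, 2.71 and 4.28 against 3.35, 5.14 and 7.57 (0.85 ± 0.23), and BGN at 14.4, 15.8 and 28.7 against 24.8, 30.6 and 38.2 (0.71 ± 0.20). In BGN, 4 of the 6 IB pigs lay below every IBxDU pig. COL1A1 was at 39.0, 56.0 and 103 in IB and 59.4, 115 and 130 in IBxDU (0.79 ± 0.25), and IBxDU 702 and 714 lay within the IB range. COL8A1 was at 0.690, 0.920 and 1.18 against 0.717, 1.65 and 2.14 (0.70 ± 0.23). COL1A2 had p under 0.01 but 0.56 ± 0.19 missed the fold limit. None of the 3 basement membrane collagens and 6 laminins tested was called. All were positive, from LAMC1 at 0.00 ± 0.11 and COL4A1 at 0.05 ± 0.14 to LAMA4 at 0.25 ± 0.12 and COL4A5 at 0.43 ± 0.30. COL4A5 passed the filter only through IBxDU.

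The count of 8 depended on the libraries. It lay between 5 and 9 when each library was left out in turn, and was 5 without IB 905, IB 907, IB 816, IBxDU 748, IBxDU 758 or IBxDU 708. COL14A1, FN1 and POSTN were called in all 12 of these fits and in a fit on all 4 groups, THBS1 and BGN in the 12 but not in the fit on all 4 groups (which also lost COL8A1), whereas COL1A1 was lost in 9, COL16A1 in 7 and COL8A1 in 10. With the lower-share libraries alone, 5 IB against 4 IBxDU, a comparison added after the data were seen, 13 genes were called, beside 1.86% of all genes. COL12A1, COL1A2, COL3A1, FBLN1 and LOX joined the list, and FN1 (0.97 ± 0.13), COL14A1 (1.31 ± 0.17), COL1A2 (0.81 ± 0.14), COL16A1 (0.75 ± 0.14), COL12A1 (1.06 ± 0.19) and POSTN (1.87 ± 0.34) had adjusted p from 0.010 to 0.047. In the other lists, genes called higher in IBxDU were 1 of 8 proteinase genes, MMP23B (0.91 ± 0.28), and 2 of 19 elastic fibre genes, among them MFAP2 (0.71 ± 0.16). So were 1 of 3 tendon and fascia markers, KERA (1.06 ± 0.33), and 1 of 6 macrophage markers. A Schwann cell marker, 1 of 3 tested, was called lower, and the remaining lists held no call. The shares of all genes were 1.04% higher and 0.403% lower. Summed marker levels at 4 months were 6.46 to 16.8 in IB and 10.17 to 20.1 in IBxDU for tendon and fascia, 75.2 to 144 and 96.5 to 139 for fibroblasts, and 27.7 to 82.2 and 43.5 to 92.9 for macrophages, and their part in the result was not tested.

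The fall of the matrix genes with age was compared between the genetic types. Within IB, 44 of 56 genes tested were called higher in newborns and 0 higher at 4 months, beside 22.5% and 21.0% of all genes. Within IBxDU the counts were 37 and 1 of 58, beside 19.5% and 19.8%. Of the genes tested, 13 in IB and 12 in IBxDU passed the filter only through their newborn level. Among the genes over the limit at both ages, 33 of 43 in IB were called higher in newborns and 0 lower. In IBxDU these counts were 28 and 1 of 46. Every newborn stood above every older pig of its type in 40 of the genes tested in IB, beside 16.4% of all genes, and in 23 in IBxDU, beside 12.5%. Both counts include genes that passed the filter through newborns alone. Of the 54 genes tested in both, the difference was larger in IB in 46. FN1 was called in IB (0.97 ± 0.18) and had -0.21 ± 0.22 in IBxDU. POSTN differed by 5.13 ± 0.31 in IB and 3.15 ± 0.41 in IBxDU, and COL14A1 by 2.25 ± 0.20 and 0.82 ± 0.24.

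**Figure D4:**
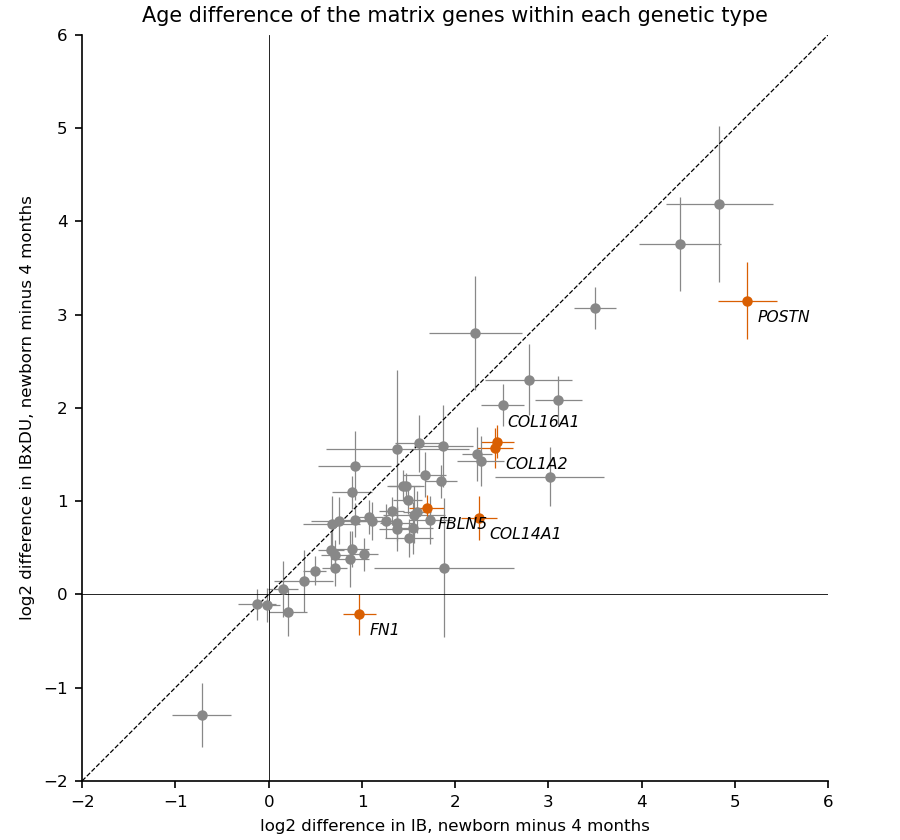
Log2 difference between newborn and 4-month muscle within IB (x axis) and within IBxDU (y axis), ± SE, 6 animals against 6 each, for the 54 matrix genes tested in both. The dashed line marks equal differences, 46 genes lie below it, and the 6 orange genes passed the unadjusted limits in the test of the difference between the types.

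The interaction of genetic type with age tests this directly. It was negative in 48 of 60 matrix genes and in 52.0% of all genes. Of the 48, 46 were tested by age in both types, and 42 of these were higher in newborns in both, so that a negative value is a smaller fall in IBxDU. In the other 4 it is not: COL8A1 and THBS4 had negative age differences in both types, and DCN and FN1 a negative one in IBxDU. No matrix gene reached an adjusted p under 0.05, the limit for this test, which 3 of the 12128 genes tested passed (0.0247%). At an unadjusted p under 0.05 there were 22 negative and 0 positive matrix genes, beside 914 negative and 744 positive among all 12128 genes. At p of at most 0.01 and 1.5-fold there were 6 negative genes, and 0 positive, beside 2.43% and 1.65% of all genes. They were POSTN (-1.98 ± 0.55), COL14A1 (-1.44 ± 0.32), FN1 (-1.19 ± 0.29), COL1A2 (-0.86 ± 0.30), COL16A1 (-0.81 ± 0.25) and FBLN5 (-0.77 ± 0.24), and the smallest adjusted p of a matrix gene was 0.098. Without the newborn IBxDU 412, COL14A1 (limma adjusted p = 0.032) and FN1 (adjusted p = 0.037) passed, beside 0.826% of all genes called negative. Of the 24 fits that each left out 1 library, this was the only one in which a matrix gene passed. With IBxDU 412 and IB 503 both left out, POSTN joined COL14A1 and FN1 (limma adjusted p = 0.048), beside 1.15% of all genes called negative. With the lower-share libraries alone 8 genes passed, beside 2.62%.

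The kind of library bears on how single matrix genes can be read, though the share of matrix genes that followed it was near that of all genes: 5 of the 59 tested in newborns and 3 of the 59 at 4 months, beside 6.34% and 6.54% of the genes tested by age. In COL12A1, COL19A1 and COL28A1 every higher-share library stood above every lower-share library of its age, at both ages. COL19A1, a scarce basement membrane zone collagen, was at 2.20 to 3.61 against 0.361 to 0.882 in newborns and at 2.65 to 5.20 against 0.0435 to 0.230 at 4 months. COL19A1 was not called between the ages in the main fit (1.47 ± 0.60). It was called higher in newborns with voom, with a term for the kind of library and with the lower-share libraries alone. COL12A1 was at 20.9 to 25.3 against 5.87 to 18.8 in newborns and at 5.21 to 10.215 against 0.674 to 2.75 at 4 months. COL28A1 was at 4.38 to 7.93 against 0.950 to 2.04, and at 0.990 to 1.79 against 0.134 to 0.462. In newborns alone COL27A1, COL9A2 and COL17A1 also stood higher in every higher-share library, the last of them below the limit for testing.

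**Figure D5:**
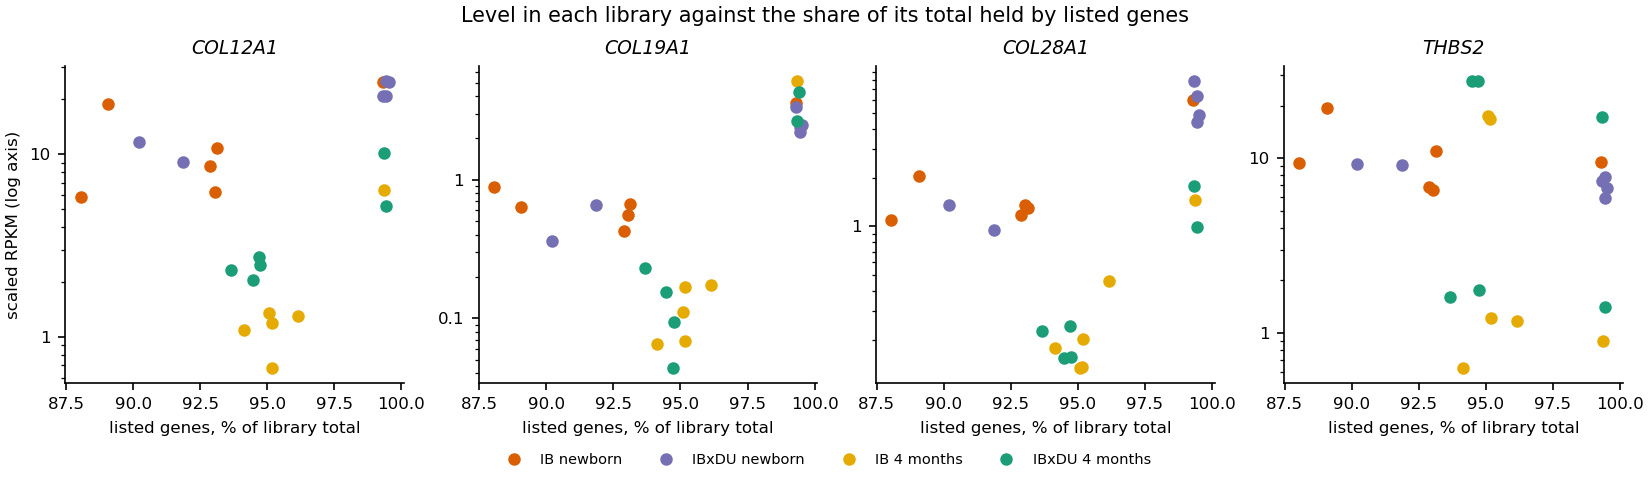
Scaled RPKM (y axis, log scale) of COL12A1, COL19A1, COL28A1 and THBS2 against the percentage of the library total that fell in listed genes (x axis), 1 point per library. The 8 libraries at 99.3% to 99.5% stand above the others of their age in the first 3 genes, whereas the high and low 4-month values of THBS2 occur in both kinds.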

How the data were processed

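RNA-seq of Longissimus dorsi from 24 male pigs was used. The authors mapped paired reads to Sscrofa 10.2 and deposited RPKM values per gene (called FPKM in their text), which were the starting point. Values were whole multiples of the worth of 1 read for 100% of 17846 expressed genes (tolerance 0.001), so library totals could be recovered, 27.0 ± 4.15 M (SD, n = 24). Whether these are reads or pairs is not given in the sources used here, nor is strand, so overlapping and antisense genes are uncertain. All 24 sample columns were used. The result of 1 gene is not reported here, though the gene is in the counts.

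Libraries were scaled together by a trimmed mean of log ratios (30% trimmed at each end). Genes with a mean over 0.5 scaled RPKM in at least 1 group compared were fitted on log2(scaled RPKM + 0.1) with limma 3.58.1 (R 4.3.3, lmFit and eBayes with trend), after tests on simulated data. Calls needed p of at most 0.01 and 1.5-fold, the limits of the study, and the interaction an adjusted p under 0.05. Fold changes of low genes are understated on this scale. Exact permutation tests were two-sided. Tables used Python 3.11.15, pandas 2.3.3 and numpy 2.4.6.

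Symbols came from a gene name table (61 of the 70 rows) and the study's tables (9 rows). Named genes were, in each class, the most abundant member and up to 3 called members per direction with the largest difference, every member called between types, and up to 2 genes per direction from each other list. Further members are named where their class is described. The members and lists were chosen with earlier results of these data known. Alternatives covered no scaling and quantile normalization, the filter, the pseudocount (0.01 and 0.5), the trend, voom on recovered reads, terms for the kind of library and genetic type, a fit on all 4 groups, an adjusted p alone and leaving out each library. Fits on the lower-share libraries alone and without IB 503 and IBxDU 412 were chosen after seeing the data.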

Additional observations from a re-analysis of the deposited data

Results flagged for a closer look

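In 39 matrix genes, each group of 6 was searched for a value far from the other 5 by Dixon's criterion on the log2 scale. Of 156 groups 17 held one, where chance gives about 1 in 20. No explanation was tested, and the values below are scaled RPKM, each with the range of the other 5 animals of its group.

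Among IBxDU pigs of 4 months, animal 702 was low in COL1A2 (74.3, others 113 to 138), COL6A3 (15.3, others 20.7 to 22.6) and FBLN5 (7.63, others 9.41 to 10.7). Animal 732 was high in COL6A2 (108, others 50.5 to 63.6) and low in LAMB1 (7.12, others 10.8 to 13.9). Animal 748 was low in COL15A1 (26.5, others 33.1 to 37.7) and 708 high in COMP (0.683, others 0 to 0.0735).

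Among IB pigs of 4 months, animal 903, the only higher-share library of its group, was high in COL12A1 (6.35, others 0.674 to 1.35) and LOXL4 (2.09, others 0.794 to 1.15). Animal 907 was low in FBN2 (0.0786, others 0.157 to 0.208) and high in COMP (0.602, others 0 to 0.106), and 889 was low in LAMA2 (12.6, others 18.5 to 22.0). TNN was at 0.00888 in IB 909 and 0.00925 in IBxDU 758 and at 0 in the other 5 of each group.

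Among newborns, IB 504 was high in COL16A1 (15.7, others 7.52 to 9.55), IB 503, the only higher-share library of its group, in COL28A1 (5.99, others 1.10 to 2.04) and IBxDU 402 in COL15A1 (49.7, others 26.2 to 33.1).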

How the results depend on the processing

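The count of genes called higher in newborns lay between 42 and 46 when each of the 24 libraries was left out in turn, and between 43 and 46 within IB and 30 and 39 within IBxDU. It was 45 with voom, 46 with a term for the kind of library, 58 without scaling and 37 with a filter at 1 RPKM, which left out COL27A1, COL4A6, COL8A2, LAMA3, LAMB3, LOXL3 and TNN. Of the results for single named genes, 973 kept direction and call when 1 library was left out, 31 lost the call, 5 gained it and 10 turned sign, all of the last being DCN (-0.073 to 0.084). Under the other settings 528 kept both, 14 lost the call, 5 gained it and 4 turned sign: COL15A1 (0.72 without scaling, 0.23 under quantile normalization) and THBS4 (0.77 and 0.19).

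Without scaling, the log2 age difference of the summed level was 2.51 for fibrillar, 2.62 for fibril-associated and 2.01 for basement membrane collagens, 1.65 for collagens VI, VII and XXVIII, 1.68 for laminins, 1.96 for fibrillins and fibulins, 1.78 for thrombospondins, 2.05 for lysyl oxidases, 1.09 for small leucine-rich proteoglycans and 1.45 for adhesive glycoproteins. The network class turned from -0.11 to 0.73. Without scaling the median of all genes also moved from -0.02 to 0.16 between types in newborns and from -0.01 to 0.10 at 4 months, and genes called higher and lower in IBxDU numbered 458 and 103 in place of 231 and 272 in newborns, and 137 and 21 in place of 116 and 45 at 4 months (77 and 63 under quantile normalization). The matrix genes kept a negative majority in newborns (35 of 60) and a positive one at 4 months (44 of 44).

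Genes called higher at 4 months numbered 0 without scaling and 2 without a filter, over both types and within IBxDU alike, and within IB 1 under quantile normalization and 0 to 1 when a library was left out. In newborns, 1 gene was called higher in IBxDU and 0 in IB without scaling, 2 were higher in IB without IB 503 and IBxDU 412, and 0 at an adjusted p under 0.05 alone. At 4 months the count of 8 became 5 in a fit on all 4 groups (without BGN, COL8A1 and THBS1), 13 with the lower-share libraries alone, 5 to 9 when a library was left out and 0 at an adjusted p under 0.05. Negative interactions numbered 8 with the lower-share libraries alone, 3 without IB 503 and IBxDU 412, and 0 to 2 when a library was left out. The cause of these shifts was not tested.

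No paired analysis was possible because the groups hold different animals and share no replicate number. Within-kind tests of the genetic type rest on few libraries, since a single IB animal of each age had the higher-share kind. Levels of genes with a short counted model (COL1A1, SPARC) and of those with 2 identifiers are uncertain beside other genes.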
